A study of Homo sapiens with 6 samples.

Results

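The mitosis and spindle genes are 42 genes that carry a dividing cell from G2 through chromosome segregation: cyclins and kinases of mitotic entry, spindle checkpoint proteins, kinetochore proteins, kinesin motors, spindle assembly factors and regulators of the anaphase-promoting complex. They were chosen by symbol, from a list of G2/M cyclins, kinases, kinetochore and spindle genes, and all 42 had a row among the 40111 genes of the deposited table. RNA-seq of poly(A) RNA was made from 6 libraries labelled BE(2)-M17, a human neuroblastoma line, with the cell type given as neuroblast and the tissue as brain. The 3 control libraries carry the genotype label NC, and the other 3 come from cells that received a CRISPR-Cas9 vector against LINC00894, a long non-coding RNA, and carry the knockdown. The study asked what LINC00894 does in these cells, by comparing their gene expression with that of the controls. No agent, time point or clone is named for either group, and nothing in the labels states separate cultures for the replicates, so a p-value here reflects only how far these libraries spread, which may be technical.

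Entry into mitosis is driven by cyclin B bound to CDK1, which is released from inhibition by CDC25 phosphatases and backed by the polo-like and aurora kinases. Kinetochores then attach chromosomes to spindle microtubules, kinesin motors shape the spindle, and the checkpoint holds the anaphase-promoting complex in check until attachment is complete. Many of these genes are transcribed late in the cell cycle, so in RNA from a whole culture a larger share of cells in G2 or mitosis and more RNA per such cell cannot be told apart.

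Depth was 29276653, 48089716 and 43219009 assigned reads in controls 1 to 3 and 22898079, 28339105 and 28782977 in knockdowns 1 to 3. LINC00894 itself stood at 2.00, 2.24 and 2.21 FPKM (fragments per kilobase of transcript, scaled to library depth) in the controls and at 1.10, 1.30 and 0.867 FPKM in the knockdowns. It fell by 0.93 on the log2(FPKM + 0.1) scale (SE 0.175, n = 3 per group, limma adjusted p = 0.0406). The markers went against the cell label in part: of 10 noradrenergic neuroblast markers read here, 6 stayed under 0.5 FPKM in all 6 libraries, among them PHOX2A, DBH and MYCN, the gene for whose amplification this line is known, at 0.162 to 0.267 FPKM. GATA3, ISL1 and HAND2, also on that list, were present in all 6, at 4.12 to 5.58, 3.80 to 5.66 and 1.26 to 1.71 FPKM. Blood cell markers differed between the groups and among the controls. Their summed level was 4.62 to 315 FPKM for controls and 519 to 900 FPKM in the knockdowns, and 3 of 8 tested rose, all globin genes (HBA1, HBA2 and HBB), while CD68, CD3E and MS4A1 stayed under 0.5 FPKM throughout. All 8 tested had a log2 difference above 0, and limma-voom called 5 of them higher. LYZ at 4.03 (limma adjusted p = 0.0570) and CD14 at 1.69 (limma adjusted p = 0.0527) did not pass. Other genes share 34.0% of the exon bases of LYZ. Control 3 held the highest control sum, with HBB at 61.8 FPKM beside 4.03 and 2.22 FPKM in controls 1 and 2, and S100A9, a myeloid gene, at 202 FPKM beside 1.25 and 0.726 FPKM there and 35.0 to 133 FPKM in the knockdowns. Schwann cell and fibroblast markers summed to 11.0 to 15.4 FPKM for controls and 10.6 to 11.8 FPKM in the knockdowns, with 0 of 4 past the test by limma, 1 lower at an unadjusted p under 0.05 and 1 called higher by limma-voom. The part of the blood markers in the results below was not tested. Control 1 stood apart from the other controls: in 60.8% of the genes tested it was closer to the mean of the knockdowns than to that of controls 2 and 3. On the first principal component (53.5% of the variance among libraries) control 1 was at -15.7, with the knockdowns at -48.9 to -29.8. Controls 2 and 3 were at 64.7 and 66.1, and they were also the deepest libraries, at 48089716 and 43219009 reads. Whether depth has a part in this split was not tested.

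Of the 41 mitosis and spindle genes tested, 31 had a higher mean log2 level in the knockdown libraries, by up to 1.53-fold (MKI67), and 5 passed the test. HMMR, CENPF, KIF14, ASPM and CDC25C rose, by 1.30-fold to 1.50-fold. A gene was tested when it reached 0.5 FPKM in at least 3 libraries, which 41 of the 42 did, and it was called when its limma p, adjusted by Benjamini-Hochberg over the 18548 genes tested, was under 0.05. Of the 41 tested, 5 rose (12.2%, against 4.14% of all genes tested), 0 fell (against 2.06%) and 36 did not pass. At an unadjusted p under 0.05, 20 of the 41 were higher, against 3893 of the 18548 genes tested (21.0%). At that threshold 3 of the 41 were lower, against 2157 of the 18548 (11.6%). Limma-voom on the recovered reads called 13 higher (31.7%, against 12.5%) and 0 lower (against 4.45%). The log2 fold change of knockdown over control was above 0 for 31 and below 0 for 10, beside 57.6% of all genes tested above 0, with a median of 0.25 beside 0.07 for all genes tested. With median-of-ratios size factors it was above 0 for 27 and below 0 for 14, beside 45.2% of all genes tested above 0. It ran from -0.29 for NUF2 to 0.61 for MKI67. All 3 knockdown libraries lay above all 3 controls for 21 genes (51.2%, against 23.9% of all genes tested) and below them for 4 (9.76%, against 14.3%), which were CDK1, AURKB, MAD2L1 and NUF2.

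**Figure D1:**
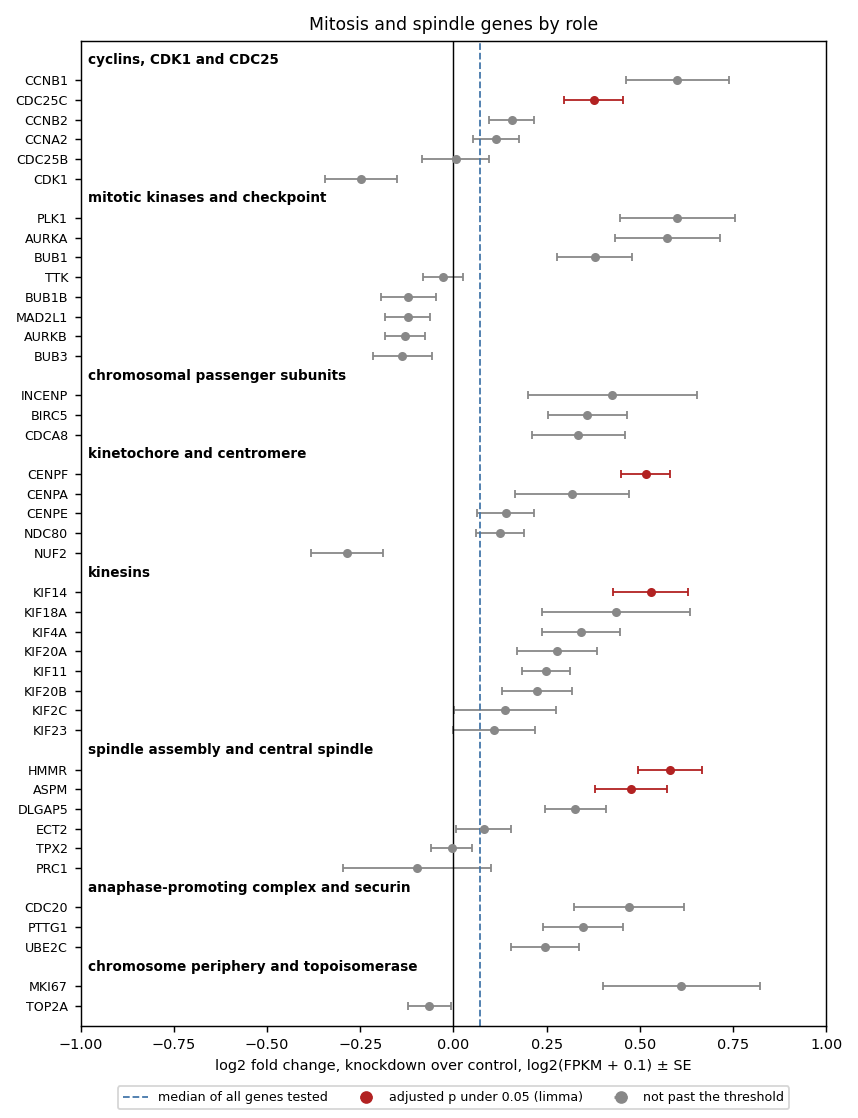
Log2 fold change of knockdown over control for the 41 tested genes, in groups by role, with its standard error as a bar and the median of all genes tested as a dashed line. The 5 red points are the genes that rose, and the points run from -0.29 for NUF2 to 0.61 for MKI67.

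The plot of fold changes by role shows that every role except the chromosomal passenger subunits, the kinesins and the regulators of the anaphase-promoting complex held genes on both sides of 0. These calls depend on single libraries and on settings. Without control 1, 24 of the 41 were called higher (58.5%, against 28.0%) and 5 lower (12.2%, against 15.7%), and leaving out any 1 of the other 5 libraries left 0 calls among them and 0 among all genes. With median-of-ratios size factors in place of total reads, which lower the median of all genes by 0.12, HMMR, CENPF and KIF14 stayed called higher (7.32%, against 1.82% of all genes), 0 were called lower (against 2.67%), and ASPM and CDC25C did not pass. With all libraries kept, limma called 0 of them in either direction with no filter on low values (against 0.0623% of all genes higher and 0.0424% lower) and 0 with no mean-variance trend (against 0.350% and 0.140%).

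The promoters of the 4 genes with the smallest p (CENPF, HMMR, KIF14 and ASPM) and that of CCNB1 are shown for the elements known from late cell cycle genes, of which CCNB1 matched only the first in this search. These are the CCAAT box, bound by NF-Y, and the cell cycle genes homology region (CHR), bound by the MuvB complex that works with B-MYB and FOXM1. Capitals mark each CCAAT box, which reads ATTGG when it lies on the other strand, and each CHR, searched on both strands as TTTGAA or as TTCGAA, with TTCAAA being the first of these on the other strand. The sequences are from RefSeq on GRCh38.p14, 5′ to 3′ in the direction of transcription, from 250 bases before to 50 bases after the transcription start. They lie at chr1:214602945-214603244 on the plus strand (CENPF), chr5:163460382-163460681 plus (HMMR), chr1:200620702-200621001 minus (KIF14), chr1:197146620-197146919 minus (ASPM) and chr5:69166900-69167199 plus (CCNB1).
CENPF: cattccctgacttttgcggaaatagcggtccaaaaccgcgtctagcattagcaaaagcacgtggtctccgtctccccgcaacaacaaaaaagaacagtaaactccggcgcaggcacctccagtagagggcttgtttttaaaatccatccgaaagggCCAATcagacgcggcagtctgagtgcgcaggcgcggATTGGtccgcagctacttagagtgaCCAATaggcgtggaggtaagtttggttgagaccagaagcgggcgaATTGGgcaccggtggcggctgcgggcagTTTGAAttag
HMMR: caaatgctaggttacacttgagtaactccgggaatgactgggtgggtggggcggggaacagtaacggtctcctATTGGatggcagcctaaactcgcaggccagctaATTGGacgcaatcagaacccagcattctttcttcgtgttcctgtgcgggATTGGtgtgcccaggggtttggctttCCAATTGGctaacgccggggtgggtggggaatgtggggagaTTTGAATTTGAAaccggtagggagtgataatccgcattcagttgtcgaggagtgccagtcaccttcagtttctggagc
KIF14: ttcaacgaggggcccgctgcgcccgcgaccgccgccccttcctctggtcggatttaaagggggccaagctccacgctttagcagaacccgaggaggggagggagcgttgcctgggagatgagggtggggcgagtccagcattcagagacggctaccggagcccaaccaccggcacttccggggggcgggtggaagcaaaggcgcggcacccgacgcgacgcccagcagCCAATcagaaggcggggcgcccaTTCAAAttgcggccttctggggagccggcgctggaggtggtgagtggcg
ASPM: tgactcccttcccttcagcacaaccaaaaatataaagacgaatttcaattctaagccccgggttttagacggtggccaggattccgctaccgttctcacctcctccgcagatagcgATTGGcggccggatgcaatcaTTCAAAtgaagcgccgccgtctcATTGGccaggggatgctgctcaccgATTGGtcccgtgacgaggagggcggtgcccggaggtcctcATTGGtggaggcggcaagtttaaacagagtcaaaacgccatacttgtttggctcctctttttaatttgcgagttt
CCNB1: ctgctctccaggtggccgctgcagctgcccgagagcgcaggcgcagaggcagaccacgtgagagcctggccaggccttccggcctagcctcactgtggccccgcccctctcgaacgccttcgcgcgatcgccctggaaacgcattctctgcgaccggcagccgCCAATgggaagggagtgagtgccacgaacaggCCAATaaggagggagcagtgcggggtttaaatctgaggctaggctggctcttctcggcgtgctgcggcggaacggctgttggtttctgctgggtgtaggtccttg

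HMMR held 2 CHR matches in tandem, beginning 28 and 22 bases before the start, and 5 CCAAT matches, of which those beginning 69 and 66 bases before the start overlap on opposite strands. In CENPF and ASPM 4 CCAAT matches were found beside 1 CHR, which in CENPF began at base 41 after the start and in ASPM 113 bases before it. KIF14 had 1 of each, the CCAAT 22 bases before the start and the CHR at base 2 after it. CCNB1 had 2 CCAAT matches and 0 matches to the 2 CHR spellings searched. Other spellings of the CHR were not searched, so this does not show that CCNB1 lacks the element. Across the 36 of 42 genes with a promoter in the table, 31 held a CCAAT (86.1%, against 39.7% of 27305 genes), 29 a CHR (80.6%, against 19.5%) and 26 both (72.2%, against 7.85%). Genes that did not rise carried the elements too: both were found for CDK1, MAD2L1 and TOP2A, and a CHR for NUF2. These matches describe letters in a window and do not show that a factor binds there.

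Among the cyclins, CDK1 and the CDC25 phosphatases, 1 of 6 passed. CDC25C (ENSG00000158402; GRCh38 5:138285265-138338355), a phosphatase that activates cyclin B and CDK1, was at 9.23, 8.57 and 8.22 FPKM in the controls and at 11.9, 10.6 and 11.3 FPKM in the knockdowns. All 3 knockdowns lay above all 3 controls. It rose by 0.38 on the log2 scale (SE 0.079, n = 3 per group, limma adjusted p = 0.0475). CCNB1 (ENSG00000134057; 5:69167010-69178245) encodes cyclin B1, the partner of CDK1 at mitotic entry, and had 53.9, 39.9 and 37.0 FPKM against 64.9, 64.6 and 66.5 FPKM. The groups did not overlap, but control 1 was the nearest of the controls to the knockdowns, and the difference of 0.60 (SE 0.139) did not pass (limma adjusted p = 0.0542). CDK1 itself went the other way, with 65.8, 81.6 and 81.4 FPKM among controls and 61.9, 64.2 and 65.4 FPKM in the knockdowns. Control 1 was only just above the highest knockdown, and the difference of -0.25 (SE 0.0969) did not pass (limma adjusted p = 0.135). CCNB2 and CCNA2, the other mitotic cyclins, stood at 0.16 and 0.11, and the phosphatase CDC25B at 0.01. With size factors CCNA2 turned to -0.01 and CDC25B to -0.12.

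Of the 8 mitotic kinases and checkpoint genes 0 passed by limma, while limma-voom called 3 of them (PLK1, AURKA and BUB1) higher. At an unadjusted p under 0.05 these 3 were higher and AURKB lower, and 5 of the 8 lay below 0. PLK1, the polo-like kinase of centrosome maturation and mitotic entry, had 23.7, 15.8 and 16.4 FPKM among controls and 27.7, 28.9 and 26.9 FPKM among knockdowns, a difference of 0.60 (SE 0.155, limma adjusted p = 0.0641). AURKA, the centrosomal aurora kinase, had 46.3, 34.7 and 31.7 FPKM against 58.0, 53.3 and 54.5 FPKM, a difference of 0.57 (SE 0.141, limma adjusted p = 0.0592). In both genes control 1 was the highest control and still lay below every knockdown. BUB1, a checkpoint kinase at kinetochores, followed the same order with 38.4, 33.0 and 29.8 FPKM against 45.8, 42.9 and 42.3 FPKM (0.38, SE 0.101, limma adjusted p = 0.0671). AURKB, the aurora kinase of the chromosomal passenger complex, was at 36.2, 35.2 and 34.9 FPKM in the controls and at 33.1, 31.9 and 32.1 FPKM in the knockdowns. The knockdowns were all lower, by a difference of -0.13 (SE 0.0536, limma adjusted p = 0.150), which did not pass. BUB3, which carries checkpoint proteins to kinetochores, overlapped between the groups, with 28.6, 32.7 and 32.5 FPKM against 26.7, 29.5 and 29.1 FPKM (-0.14, SE 0.0793). The checkpoint genes BUB1B and MAD2L1 were both at -0.12, and the checkpoint kinase TTK was at -0.03.

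The 3 chromosomal passenger subunits, which hold AURKB at centromeres, lay at 0.43 (INCENP), 0.36 (BIRC5) and 0.33 (CDCA8), and 0 of 3 passed by limma, with 2 at an unadjusted p under 0.05 (BIRC5 and CDCA8) and BIRC5 called by limma-voom. BIRC5, which is survivin, had 55.9, 44.1 and 44.4 FPKM among controls and 63.7, 58.2 and 62.4 FPKM in the knockdowns. Its groups did not overlap. INCENP, the scaffold of the complex, had 53.0, 30.6 and 28.5 FPKM against 48.9, 48.9 and 47.1 FPKM. There control 1 was the highest of all 6 libraries, so the groups overlapped.

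At the kinetochore and centromere 1 of 5 genes passed. CENPF (ENSG00000117724; 1:214603195-214664588), a large protein that accumulates in G2 and joins the outer kinetochore, was at 22.2, 20.2 and 22.4 FPKM in the controls and at 31.4, 31.1 and 30.2 FPKM in the knockdowns. The knockdowns sat close together, well above controls that also sat close together, and control 1 lay between the other controls. CENPF rose by 0.52 (SE 0.065, n = 3 per group, limma adjusted p = 0.0335), and its fold was 1.43. NUF2, a subunit of the NDC80 complex that grips microtubules, had the lowest log2 fold change of the 41, with 26.1, 30.0 and 32.9 FPKM against 25.2, 23.0 and 24.6 FPKM. All knockdowns were below all controls, with control 1 nearest to them, and the difference of -0.29 (SE 0.0963) did not pass (limma adjusted p = 0.102). NDC80, the binding partner of NUF2 in that complex, stood at 0.13 in the other direction. CENPA, the histone variant that marks centromeres, had 16.5, 10.9 and 12.2 FPKM against 16.1, 17.1 and 15.5 FPKM, with control 1 inside the knockdown range (0.32, SE 0.152). The kinetochore motor CENPE was at 0.14.

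All 8 kinesins had a log2 fold change above 0, with a median of 0.26, although KIF23 turned to -0.01 with size factors, and 1 passed. KIF14 (ENSG00000118193; 1:200551497-200620734), a motor of cytokinesis, was at 13.5, 10.7 and 11.4 FPKM in the controls and at 17.9, 16.7 and 16.6 FPKM in the knockdowns. The groups did not overlap, and control 1 was the highest control. KIF14 rose by 0.53 (SE 0.10, n = 3 per group, limma adjusted p = 0.0410). KIF11, the motor that pushes spindle poles apart, had 31.0, 29.1 and 30.7 FPKM against 38.1, 34.6 and 35.3 FPKM, a difference of 0.25 (SE 0.0641, limma adjusted p = 0.0636). Its controls lay together below every knockdown. KIF18A, which dampens chromosome movement at the metaphase plate, had a larger difference of 0.44 but a wider spread (SE 0.198), with control 1 at 20.1 FPKM beside 12.7 and 11.8 FPKM in the other controls and 18.8 to 20.7 FPKM in the knockdowns. The chromokinesin KIF4A was at 0.34, the cytokinesis motors KIF20A and KIF20B at 0.28 and 0.22, the microtubule depolymerase KIF2C at 0.14, and the central spindle motor KIF23 at 0.11.

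Of the spindle assembly and central spindle genes 2 of 6 tested passed. HMMR (ENSG00000072571; 5:163460203-163491945), a spindle and centrosome protein also known as the hyaluronan-mediated motility receptor, was at 52.5, 43.2 and 49.1 FPKM in the controls and at 75.6, 71.5 and 69.0 FPKM in the knockdowns. The lowest knockdown lay well above the highest control. HMMR rose by 0.58 (SE 0.0870, n = 3 per group, limma adjusted p = 0.0353). ASPM (ENSG00000066279; 1:197084128-197146694), a spindle pole protein whose loss causes microcephaly, was at 14.4, 12.1 and 14.9 FPKM against 20.4, 18.7 and 18.4 FPKM. The groups did not overlap, and control 3 was the highest control. ASPM rose by 0.48 (SE 0.0978, n = 3 per group, limma adjusted p = 0.0457). DLGAP5, which stabilises kinetochore fibres, was at 0.33 (limma adjusted p = 0.0603) with no overlap between the groups. ECT2, the exchange factor that starts the cleavage furrow, stood at 0.08 (-0.04 with size factors), and TPX2, the microtubule nucleator that activates AURKA, at -0.01 with levels of 107 to 113 FPKM in all 6 libraries.

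PRC1, the bundler of the central spindle, and NUSAP1, a microtubule-binding spindle protein, had levels that their gene models leave uncertain. PRC1 was at 0.930 to 1.32 FPKM, and NUSAP1, at 0.250 to 0.352 FPKM, was not tested. In GENCODE 29 other genes share 58.4% of the exon bases of PRC1, with 57.6% shared by 1 protein-coding gene. For NUSAP1 1 protein-coding gene shares 62.2%. The partner of PRC1 (ENSG00000284946) had 5.37 to 8.33 FPKM, with a log2 fold change of -0.30 that did not pass (limma adjusted p = 0.189), and the partner of NUSAP1 was not analysed here. Reads that could belong to either gene cannot be told apart. Of the 42 genes, 27 shared no exon base with another gene, and 13 shared up to 12.5%, the highest being PLK1, mostly with an antisense gene. The libraries keep no strand, so such reads cannot be separated. Outside PRC1 and NUSAP1, each gene had between 720 (CENPA) and 35939 (TOP2A) reads in a library.

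Regulators of the anaphase-promoting complex and securin gave 0 of 3 past the test by limma, with all 3 at an unadjusted p under 0.05 and CDC20 called by limma-voom. All lay above 0 with no overlap between the groups. CDC20, the activator that the checkpoint restrains, was at 91.3, 65.4 and 62.2 FPKM in the controls and at 104, 96.3 and 98.9 FPKM in the knockdowns (0.47, SE 0.148, limma adjusted p = 0.0893). PTTG1, which is securin and keeps separase inactive, was at 85.3, 68.8 and 66.9 FPKM against 97.1, 88.0 and 94.7 FPKM (0.35, SE 0.106). In both, control 1 was nearer to the knockdowns than to the other controls. UBE2C, the ubiquitin-conjugating enzyme of the complex, was at 0.25 and was the most abundant of the 42 genes in the controls. MKI67, the Ki-67 proliferation marker that coats mitotic chromosomes, had the largest log2 fold change of the 41 at 0.61 (SE 0.211), yet did not pass (limma adjusted p = 0.107). It had 59.3, 35.1 and 34.0 FPKM against 65.0, 63.8 and 60.9 FPKM, so that control 1 sat just below the knockdowns. TOP2A, the topoisomerase that untangles sister chromatids, overlapped between the groups, with 110, 117 and 116 FPKM against 111, 109 and 108 FPKM (-0.06, SE 0.0576).

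**Figure D2:**
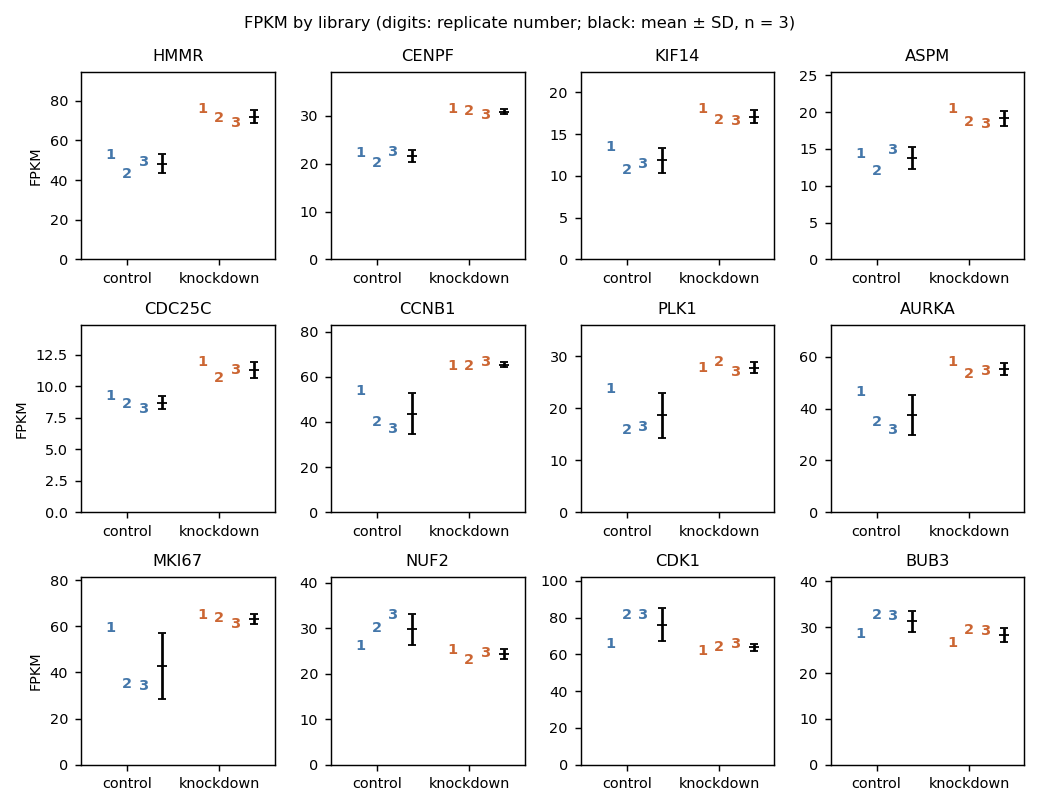
FPKM of 12 genes in each library, control replicates in blue and knockdown replicates in orange, each digit being a replicate number and the black bar the mean ± SD (n = 3). In CENPF, HMMR and ASPM control 1 sits among the controls, while in MKI67 it lies at 59.3 FPKM, beside knockdowns at 60.9 to 65.0 FPKM.

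The plot of FPKM by library shows the same control library in 2 positions. Over the 41 genes, control 1 was the highest control in 28, and 18 of the 21 genes with all knockdowns above all controls had it as their highest control. The median log2 difference of control 1 over controls 2 and 3 was 0.19 for these genes, beside 0.08 for all genes tested. The median of the knockdowns over control 1 was 0.08, beside 0.02 for all genes tested, and over controls 2 and 3 it was 0.33. For 16 of the 41 the knockdown mean lay within 0.1 of control 1. For CENPF, HMMR and ASPM it lay 0.47, 0.46 and 0.41 above control 1, and for INCENP, KIF18A and CENPA it lay 0.13, 0.04 and 0.02 below it. The counts of 28, 18 and 16 were not made over all genes tested, so they do not show a trait particular to these genes. Summed over the 42 genes, the level was 1715, 1518 and 1504 FPKM for controls and 1858, 1802 and 1823 FPKM in the knockdowns.

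**Figure D3:**
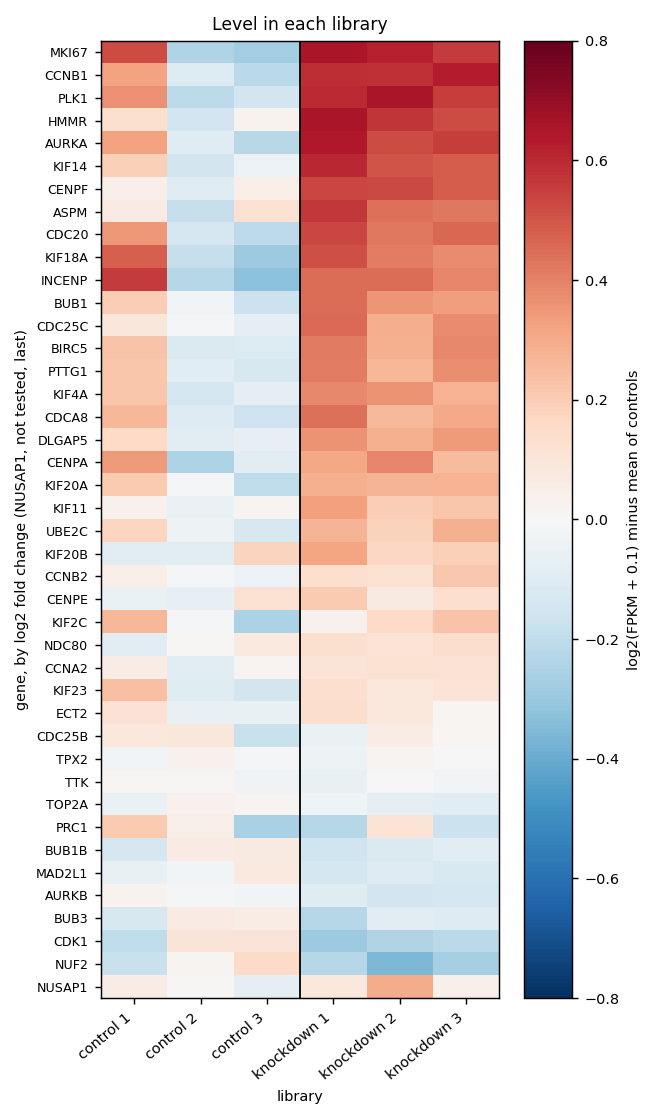
Deviation of each of the 42 genes from the mean of the controls in each library, on the log2(FPKM + 0.1) scale, ordered by log2 fold change with NUSAP1 last. The column of control 1 is red for MKI67, INCENP and KIF18A and pale for CENPF, and NUF2 and CDK1 are blue in the knockdowns.

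The map of deviations by gene and library shows log2 fold changes on both sides of 0 among genes whose products work together, such as CCNB1 and CDK1, although of the 11 genes in the pairs below 0 passed by limma and limma-voom called 3 (CCNB1, BIRC5 and BUB1). Ratios of the 2 levels within a library do not depend on how the library is scaled. They were computed for 6 pairs chosen after the values were seen, and so are given with no test. The ratio of CCNB1 to CDK1 was 0.819, 0.489 and 0.455 in the controls and 1.05, 1.01 and 1.02 in the knockdowns. The knockdown ratios lay close together above all controls, and control 1 was nearer to them than controls 2 and 3. NDC80 over NUF2 was 0.813, 0.756 and 0.725 against 0.980, 1.06 and 1.01, where the 3 controls lay close together. BIRC5 over AURKB was 1.55, 1.25 and 1.27 against 1.92, 1.83 and 1.94. BUB1 over BUB1B was 1.12, 0.839 and 0.752 against 1.36, 1.23 and 1.20. In each of these pairs the second gene had a log2 fold change below 0 and the first one above 0, although NDC80 stood at 0.0034 with size factors. The remaining pairs were CCNB1 over CCNB2, at 1.55, 1.20 and 1.14 against 1.77, 1.78 and 1.71, and MKI67 over TOP2A, at 0.539, 0.299 and 0.294 against 0.583, 0.586 and 0.565.

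**Figure D4:**
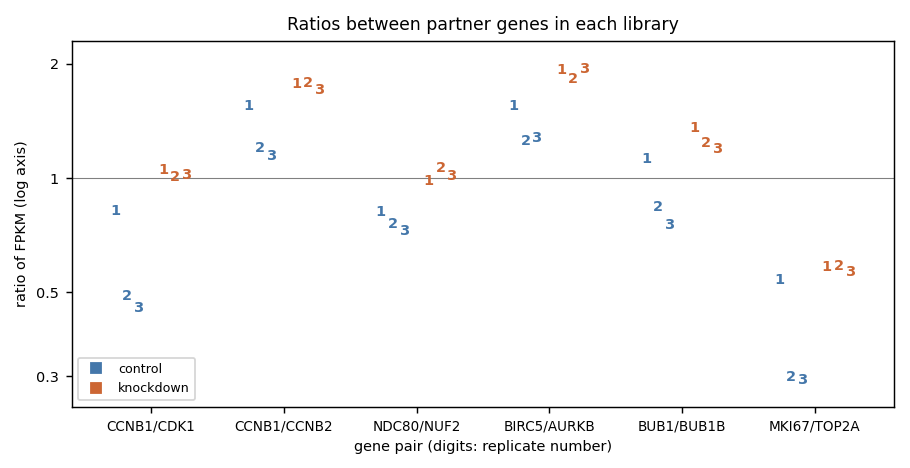
Ratio of the FPKM of 2 genes in each library, on a log axis, for 6 pairs, with control replicates in blue and knockdown replicates in orange. In every pair the 3 knockdown ratios lie above the 3 control ratios, as for NDC80 over NUF2 with 0.980 to 1.06 against 0.725 to 0.813.

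The plot of ratios shows control 1 as the control nearest to the knockdowns in all 6 pairs. The log2 fold change was not tied to gene length or level among the 41 genes. Its correlation with the log10 length the FPKM values imply (median 3932 bases, from 1286 to 12845) was r = 0.04 and rho = 0.02, and with the log2 control level it was r = -0.04 and rho = -0.08, as descriptions across genes that share the same 6 libraries.

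The authors' deposited table, which scales the libraries by size factors, gave an adjusted p under 0.05 and a higher level in the knockdown for 7 of the 42 genes (16.7%, against 3.23% of 40090 genes), and a lower level for 1 (2.38%, against 4.22%). In the authors' deposited table the 7 were HMMR, CENPF, KIF14, ASPM, CCNB1, AURKA and PLK1, with log2 fold changes from 0.35 for ASPM to 0.47 for CCNB1, and the 1 was NUF2 at -0.42. CDC25C was at 0.26 with an adjusted p of 0.212 in the authors' deposited table. A second deposited table of 1867 genes (4.65% of the 40111), all at a log2 fold change of at least 1.0 in either direction, held 0 of the 42. With a filter at 1 CPM (reads scaled to library depth, with no gene length) in place of 0.5 FPKM, limma called 9 of the 42 higher (21.4%, against 8.38% of the genes tested) and 0 lower (against 3.87%), the added genes being CCNB1, PLK1, AURKA and DLGAP5.

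The other genes of the same machinery were read from lists named by role, whose medians are log2 fold changes. Their limma counts stand beside 4.14% of all genes tested that rose and 2.06% that fell. Those by limma-voom stand beside 12.5% higher and 4.45% lower. With size factors 0 of the 10 genes named here as having risen passed (limma adjusted p from 0.0529 for STAG1 to 0.0780 for GINS3). Among 14 other mitotic kinesins and cytokinesis genes 2 rose and 0 fell, with a median of 0.37: CKAP2, a spindle pole protein, by 0.41, and CEP55, a scaffold of abscission, by 0.37. Their median was 0.25 with size factors. CKAP2L was next at 0.47 (limma adjusted p = 0.0519). Among 14 genes of cohesin, separase and shugoshin 2 rose and 0 fell, with a median of 0.28 (0.16 with size factors): STAG1, a cohesin subunit, by 0.96, and WAPL, which releases cohesin, by 0.44. SGO2, a protector of centromeric cohesin, was at 0.29 and did not pass. Among 30 constitutive centromere and outer kinetochore genes 3 rose and 0 fell with a median of 0.01 (-0.11 with size factors): NSL1 by 0.51, SKA3 by 0.43 and CENPL by 0.43. With size factors 0 of the 30 rose (against 1.82% of all genes) and 1 fell (against 2.67%). Limma-voom called 4 of the 30 higher (against 12.5% of all genes) and 2 lower (against 4.45%). Among 16 subunits of the anaphase-promoting complex CDC27 rose by 0.39 and the median was 0.09 (-0.04 with size factors), while ANAPC1 at 0.34 and CDC23 at 0.20 did not pass. Of 8 condensin genes 0 passed by limma and 0 by limma-voom. At an unadjusted limma p under 0.05, 2 of the 8 were higher (NCAPG and NCAPH, both at 0.23), against 21.0% of all genes tested. NCAPD2 was at 0.25, and the median of the 8 was 0.14 (0.02 with size factors). Other genes share 21.2% of the exon bases of STAG1 and 33.1% of those of NCAPG in GENCODE 29, so their levels are uncertain.

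Centriole and centrosome genes split, with 1 of 16 up (CETN2, a centrin, by 0.46) and 1 down, CEP152, a scaffold of centriole duplication, which fell by 0.49. TUBGCP2, a subunit of the gamma-tubulin complex, was at -0.31 and did not pass. The mitotic entry and exit regulators gave 1 of 15 that fell, ARPP19, an inhibitor of the phosphatase PP2A, by 0.25, while GTSE1 at 0.40 and BORA, an activator of AURKA, at 0.38 did not pass. Of 14 transcription factors and complex members that control G2/M genes 0 rose and 2 fell. However, 9 of the 14 lay above 0, with a median of 0.15 (0.03 with size factors), and limma-voom called 5 higher and 2 lower. Those that fell were RBBP4, a MuvB subunit, by 0.33, and RBL2, which is p130 of the repressive DREAM complex, by 0.30. FOXM1, the factor that activates late cell cycle genes, had a log2 fold change of 0.09 (limma adjusted p = 0.314), TFDP1, the partner of E2F proteins, was at 0.29, and MYBL2, which is B-MYB, was at -0.10. With size factors FOXM1 turned to -0.04, TFDP1 was at 0.17 and MYBL2 at -0.22. Among 35 DNA replication genes, which are transcribed earlier in the cycle, 1 rose (GINS3, by 0.45) and 3 fell: RRM2, a ribonucleotide reductase subunit, by 0.39, E2F1, a factor that drives replication genes, by 0.37, and POLA2, a subunit of polymerase alpha, by 0.63. With size factors POLA2 did not pass (limma adjusted p = 0.0522). Shared exon bases make some of these levels uncertain, at 37.0% for BORA, 35.1% for POLA2, 20.2% for RRM2 and 18.2% for RBL2, with RBBP4 close to RBL2. The median of the replication genes was -0.06 beside 0.25 for the mitosis and spindle genes (-0.18 beside 0.13 with size factors), and that difference between the lists was not tested. By limma-voom 1 of the 35 replication genes was higher and 4 lower (against 12.5% and 4.45% of all genes). It called 4 and 0 of the 14 kinesin and cytokinesis genes, and 5 and 0 of the 14 cohesin genes. Of the 16 subunits of the anaphase-promoting complex it called 2 and 0. The 16 centriole genes gave 3 and 2, and the 15 entry and exit regulators 4 and 1. Without control 1, where 28.0% of all genes were called higher and 15.7% lower, the calls were 12 higher and 0 lower of the 14 kinesin and cytokinesis genes, 9 and 2 of the 14 cohesin genes, 9 and 9 of the 30 centromere and kinetochore genes, and 4 and 2 of the 16 subunits of the anaphase-promoting complex. They were 5 and 1 of the 8 condensin genes, 8 and 5 of the 16 centriole genes, 7 and 5 of the 15 entry and exit regulators, 6 and 2 of the 14 transcription factors, and 5 and 14 of the 35 replication genes.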

How the data were processed

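Poly(A) RNA was sequenced in 6 libraries, 3 control and 3 LINC00894 knockdown, grouped by sample title. HISAT2 was used, per the submitters' processing notes, and its version, like the read counter, genome build, annotation and guides, is not given in the sources used here. FPKM per library were deposited by the authors, a unit judged from the values. They also deposited a mean read signal per group, a log2 fold change, a p-value and an adjusted p-value per gene, per the file headers. Each of the 6 library columns was matched to its title, leaving 0 unmatched.

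Whole reads were recovered from the FPKM and group means: within 0.1 read, 100% of values were whole. The length factor of each gene was chosen to bring its values nearest to whole reads, so that share is partly set by the method. Among values of 1 to 10 reads, 63.3% to 67.2% were even, by library. Whether the 2 reads of a fragment were counted separately was not tested. The main test was limma 3.58.1 (under R 4.3.3) on log2(FPKM + 0.1), with its mean-variance trend, for genes that reached 0.5 FPKM in 3 or more libraries, with a term for group alone, two-sided p-values and adjustment by Benjamini-Hochberg over 18548 genes. Fold changes on this scale understate those of low genes. Limma-voom on the recovered reads, median-of-ratios size factors, other pseudocounts and filters, no trend, a replicate block and each library left out were alternatives. Coordinates and exon overlaps are from GENCODE 29 (GRCh38), and promoters from RefSeq (GRCh38.p14). Python 3.11.15, pandas 2.3.3 and scipy 1.17.1 were used.

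The members, their roles, the other lists and the alternatives were chosen with earlier results of these data known. All 42 genes are named. Values in all 6 libraries are given for those that passed, the 3 lowest log2 fold changes and 10 well-known mitotic genes, and for a few more chosen after their values were seen. From every other list of cell division genes, those that passed are named, with up to 3 of the smallest p. The result of 1 marker gene is not reported here.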

Additional observations from a re-analysis of the deposited data

How the results depend on the processing

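Among all genes 768 rose and 382 fell. The counts were 338 higher and 495 lower with median-of-ratios size factors (40.6% of calls higher, against 66.8%), 25 and 17 with no filter on low values, 1426 and 659 with the filter at 1 CPM, 65 and 26 with no mean-variance trend, and 2322 and 826 with limma-voom. Leaving out 1 library gave 0 to 5187 higher and 0 to 2906 lower, the highest without control 1. Of the mitosis and spindle genes 5 rose and 0 fell. The counts higher were 3 with size factors, 0 with no filter, 9 with the count filter, 0 with no trend and 13 with limma-voom, and 5 with a pseudocount of 1 or 0.01 FPKM. Leaving out 1 library gave 0 to 24 higher and 0 to 5 lower. The adjusted p of the 5 that rose ranged over these alternatives from 0.00138 to 0.185. With size factors the median log2 fold change was 0.13, beside -0.05 for all genes tested. CCNA2, CDC25B, KIF23 and ECT2 turned to -0.0083, -0.12, -0.0131 and -0.0408 with them. Leaving out 1 library also turned CDC25B (-0.0824 to 0.0498), TPX2 (-0.0172 to 0.0133) and PRC1 (-0.23 to 0.0078). In the 150 bases before the start, 55.6% of promoters held a CHR (9.72% of all genes) and 52.8% both elements (2.65%). The cause of these changes was not tested.

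The labels do not say whether libraries of the same replicate number belong together. The deviations of each library from its own group mean, not the levels themselves, were correlated over genes. For same-numbered libraries these correlations were 0.15, 0.08 and 0.04. Controls 1 and 2 each correlated best with the knockdown of the same number, and control 3 with knockdown 2 (0.10). Correlations this low, with 3 libraries per group, cannot decide whether the libraries are paired. With the replicate block 0 genes rose and 0 fell by limma, among all genes and among the mitosis and spindle genes.

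Precision is limited by the 3 libraries per group: the median SE of the mitosis and spindle genes was 0.0963 on the log2 scale.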
